A study of Mus musculus with 6 samples.

Results

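The ephrin ligands are the 8 genes Efna1, Efna2, Efna3, Efna4, Efna5, Efnb1, Efnb2 and Efnb3, and all 8 had a value among the 19938 genes measured. The family was chosen by a measured value, the higher Efna3 level with valproic acid (VPA) in these same arrays, and the other 7 genes came with it by name. Each gene is represented by the probe set with the highest mean among those annotated with that symbol alone. Each of the 8 had 1 such probe set. Messenger RNA was compared between 3 arrays of VPA-treated and 3 arrays of control murine prostate cancer cells, going by the titles and the design text. VPA, an anticonvulsant fatty acid, inhibits class I histone deacetylases. The sources used here do not give the dose, the duration, the cell line or any genetic change that the groups share. The strain and cell type fields conflict with the titles: they give Stra8-EGFP/Rosa26 and undifferentiated stem cells for the VPA samples, against 129SV and differentiated stem cells for the controls. Every VPA minus control difference below rests on the titles. If the strain and cell type fields hold, strain and cell type follow the groups exactly, and VPA, strain and cell type cannot be told apart in any difference below.

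Ephrins are cell surface proteins that bind Eph receptor tyrosine kinases on a neighbouring cell, and the contact signals into both cells. Ephrin-A proteins are held in the membrane by a glycosylphosphatidylinositol (GPI) anchor and bind mainly EphA receptors, whereas ephrin-B proteins span the membrane, have a cytoplasmic tail and bind mainly EphB receptors. The system is best known for guiding axons and for keeping cell populations apart, and it also acts at contacts between epithelial cells.

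Values are on the log2 scale of the robust multi-array average (RMA), on which a difference of 1 is a doubling. The array medians ran from 7.15 to 7.18. The values carry no detection call, so a low value does not show that a transcript was absent, and levels of different genes are not compared. Labelled cell types were checked against marker lists. None of 10 pluripotency genes passed the test described below, where 2.34% of all genes did. At an unadjusted p under 0.05 in that test, 0 were higher and 4 were lower, against 9.82% and 8.3% of all genes. The mean of that list ran from 6.72 to 6.87 in VPA arrays and from 6.93 to 7.07 in control arrays, so the group with the undifferentiated label was the one with the lower values. None of 9 measured prostate and luminal epithelial genes passed either, with list means from 6.63 to 6.71 in VPA arrays and from 6.59 to 6.72 in control arrays. Unadjusted, 2 of these 9 were higher and 0 were lower at p under 0.05. Whether the defining markers of either cell type are expressed cannot be read from these values.

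Efna1, Efna3 and Efna4 are neighbours on chromosome 3 of the mouse. Efna2 lies on chromosome 10, Efna5 on 17, Efnb1 on X, Efnb2 on 8 and Efnb3 on 11, by the RefSeq annotation of GRCm38.p6. Since the difference of Efna3 stood apart from those of both neighbours, the 250 bases before the outermost annotated start of each of the 3 are shown, from RefSeq, with GC boxes in capitals. The GC box, GGGCGG or its reverse complement CCGCCC, is a site type of Sp1-family factors. All 3 genes are read from the minus strand, and the windows are chr3:89322940-89323189 for Efna3, chr3:89280952-89281201 for Efna1 and chr3:89338029-89338278 for Efna4.
Efna3: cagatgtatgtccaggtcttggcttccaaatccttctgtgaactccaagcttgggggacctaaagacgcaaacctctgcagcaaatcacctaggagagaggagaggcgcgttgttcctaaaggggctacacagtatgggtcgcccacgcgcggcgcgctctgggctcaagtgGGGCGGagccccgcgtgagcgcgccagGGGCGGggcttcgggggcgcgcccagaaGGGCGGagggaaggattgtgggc
Efna1: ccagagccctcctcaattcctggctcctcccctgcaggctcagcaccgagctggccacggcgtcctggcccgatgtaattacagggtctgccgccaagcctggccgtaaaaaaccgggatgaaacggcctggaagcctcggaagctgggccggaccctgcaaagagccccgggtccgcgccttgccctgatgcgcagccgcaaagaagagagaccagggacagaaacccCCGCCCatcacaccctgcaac
Efna4: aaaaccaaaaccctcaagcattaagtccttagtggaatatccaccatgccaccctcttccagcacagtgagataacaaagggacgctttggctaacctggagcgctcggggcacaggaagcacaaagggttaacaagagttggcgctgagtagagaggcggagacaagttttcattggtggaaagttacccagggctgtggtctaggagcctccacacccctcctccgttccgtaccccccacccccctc
The Efna3 window held 3 GC boxes, all in the orientation of the gene, and 19 CpG dinucleotides. The Efna1 window held 1 GC box, in the opposite orientation, and 16 CpG dinucleotides. The Efna4 window held no GC box and 7 CpG dinucleotides. The windows shown thus differ in GC boxes among the 3 neighbours. At a second annotated start, the window of Efna3 held 3 GC boxes and 31 CpG dinucleotides, and that of Efna1 held 2 and 18. A GC box by itself is common: 32.7% of all 32851 windows of this length held at least 1. The median CpG count of all windows was 6, with quartiles of 2 and 16. The part of these sequences in the VPA differences was not tested. RefSeq windows were found for 7 of the 8 ligands. Outside chromosome 3, Efna5 had 4 GC boxes, Efnb2 had 3, Efna2 had 2 and Efnb1 had none. On both strands, the other motifs searched were CCAAT (33.8% of all windows), TATAAA (12.4%), CACGTG (6.0%) and TGACGTCA (1.5%), and no match of theirs overlapped a GC box in the 3 windows. None of these 4 was in the Efna3 or Efna1 window, and the Efna4 window held 1 CCAAT. The absence of a match says only that these letters are not in the window.

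Efna3 encodes ephrin-A3, a GPI-anchored ligand of EphA receptors known in the mouse hippocampus, where astrocytes display it. Its log2 values (probe set 10499545) were 10.03, 9.96 and 9.43 in VPA replicates 1, 2 and 3, against 8.09, 8.82 and 8.27 in control replicates 1, 2 and 3. All VPA arrays lay above all control arrays, with a gap of 0.61 between the lowest VPA and the highest control value. VPA replicate 3 was the lowest of its group and control replicate 2 the highest of its own, so these arrays lay closest to each other. The mean was 9.81 ± 0.33 in VPA arrays and 8.39 ± 0.38 in control arrays (SD, n = 3 each). The log2 difference was 1.41 (SE 0.203), which is 2.66-fold with a 95% interval from 1.94 to 3.66. It was the fifth largest of the 19938 differences (rank 5). This contrast chose the family, so the value and its interval are descriptions and no p-value of the difference is given. The interval takes no account of that choice. With each array left out in turn the difference ranged from 1.26 to 1.63. More cells with the transcript and more transcript per cell cannot be told apart in such bulk RNA.

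**Figure D1:**
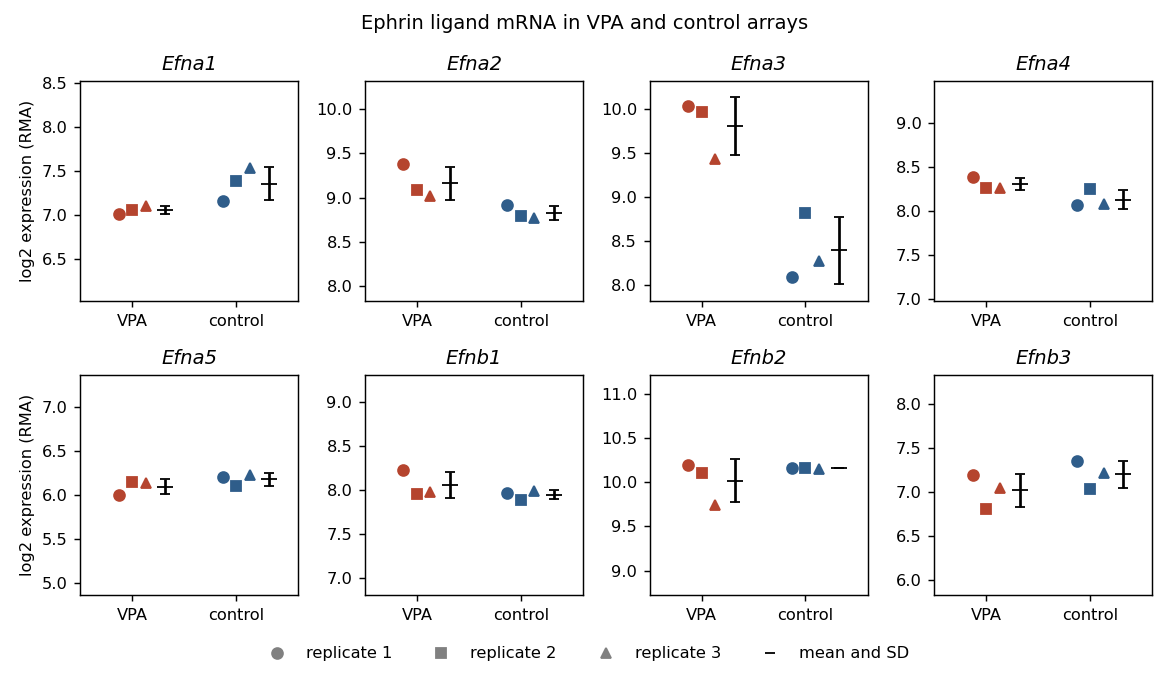
The log2 RMA value of each ephrin ligand is plotted for each VPA array and each control array (circle, square and triangle for replicates 1, 2 and 3), with the group mean and SD (n = 3) as a bar beside the points. All panels span the same log2 range. The 3 VPA values of Efna3, from 9.43 to 10.03, sit well above its control values, from 8.09 to 8.82, and no other ligand shows a gap of that size.

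Markers of neurons moved in the same arrays. Of 6 neuronal markers, 3 were called higher with VPA in the fit over all genes, namely Syn1, Stmn2 and Map2, none was called lower and 3 did not pass. Over all genes 1.71% were called higher. The count of 3 became 0 without VPA replicate 1, VPA replicate 2, control replicate 1 or control replicate 3, and with all probe sets tested. It became 4 with a filter on low values, a second quantile normalization or a trended prior. With each gene centred on its mean of all arrays, the list averaged 0.55, 0.43 and 0.07 in VPA replicates 1, 2 and 3 and -0.44, -0.31 and -0.30 in control replicates 1, 2 and 3. VPA replicate 3 was thus the lowest VPA array for this list as for Efna3. It was also the lowest in the Eph receptor, effector, reverse signalling, GPI anchor and guidance lists below, but not in the protease list. The highest control array was replicate 3 for the neuronal list but replicate 2 for Efna3. The mean of the list ran from 7.66 to 8.15 in VPA arrays and from 7.16 to 7.29 in control arrays. The other 3 markers differed among themselves. Tubb3, a neuronal tubulin gene, was at 0.45 (SE 0.102, adjusted p = 0.055), with all VPA arrays above all control arrays. Rbfox3, which encodes the neuronal nuclear antigen NeuN, was at -0.14 (SE 0.0841, limma adjusted p = 0.425), with all VPA arrays below all control arrays. Snap25, a synaptic membrane fusion protein gene, was at 0.01 (SE 0.116, adjusted p = 0.96). Of the 6 markers, 4 had all VPA arrays above all control arrays and 1 below, against 11.1% and 12% of all genes. The part of these markers in the Efna3 value was not tested.

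The other ephrin-A ligands differed far less than Efna3, and not all in 1 direction. Efna2, whose product marks positions along the visual map of the midbrain in the mouse, had log2 values of 9.38, 9.09 and 9.02 in VPA replicates 1, 2 and 3, against 8.92, 8.79 and 8.77 in control replicates 1, 2 and 3. The groups did not overlap, with a gap of 0.10. The difference was 0.34 (SE 0.109, 95% interval from 0.09 to 0.58). Efna1 encodes ephrin-A1, a main ligand of EphA2 in epithelia and endothelium. It had 7.01, 7.05 and 7.10 in VPA arrays, against 7.15, 7.38 and 7.53 in control arrays. All VPA values lay below all control values, and the controls were spread more widely (SD 0.187) than the VPA arrays (SD 0.0447). The difference was -0.30 (SE 0.106, 95% interval from -0.54 to -0.06), opposite in sign to that of its neighbour Efna3.

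Efna4 and Efna5 stood closer to 0. Efna4, another GPI-anchored ligand, had 8.38, 8.26 and 8.26 in VPA arrays, against 8.07, 8.25 and 8.07 in control arrays. VPA replicates 2 and 3 were only 0.02 above control replicate 2, so the groups barely separated. The difference was 0.17 (SE 0.0899, 95% interval from -0.03 to 0.38), and an Efna4 change as large as that of Efna3 lies outside this interval. Efna5, which repels retinal axons in the mouse midbrain, had 5.998, 6.151 and 6.133 in VPA arrays, against 6.202, 6.097 and 6.228 in control arrays. The groups overlapped, and the difference was -0.08 (SE 0.0871, 95% interval from -0.28 to 0.11), or -0.03 without VPA replicate 1.

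All 3 ephrin-B ligands overlapped between the groups, as most genes did, since only 23.1% of all genes did not overlap. Efnb1, an X-linked gene whose product sorts cells at boundaries of the developing skull, had 8.22, 7.96 and 7.98 in VPA arrays, against 7.96, 7.89 and 7.99 in control arrays. VPA replicate 1 alone was high. The difference was 0.10 (SE 0.0966, 95% interval from -0.11 to 0.32), and it came to 0.02 without VPA replicate 1. Efnb2, the arterial ligand of EphB4, had 10.20, 10.11 and 9.74 in VPA arrays, against 10.16, 10.16 and 10.16 in control arrays. The controls were nearly identical (SD 0.0036) and VPA replicate 3 lay below them. The difference of -0.14 (SE 0.12, 95% interval from -0.41 to 0.13) came to -0.0046 without VPA replicate 3. Efnb3, a midline barrier for corticospinal axons in the mouse, had 7.20, 6.82 and 7.05 in VPA arrays, against 7.35, 7.04 and 7.22 in control arrays. In both groups replicate 2 was the lowest, and the difference was -0.18 (SE 0.121, 95% interval from -0.45 to 0.09), and it came to -0.08 without VPA replicate 2 and -0.11 without control replicate 1.

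Across the family, 4 differences were above 0 and 4 below it. The median of the 7 ligands other than Efna3 was -0.08, against -0.035 over all genes tested. The difference of Efna3 was 4.17 times the largest of the others in size, that of Efna2. As a description, 1 of the 8 ligands, Efna3, was among the genes called at an adjusted p under 0.05 in the limma fit over all genes, where 2.34% of all genes were called, 1.71% higher and 0.632% lower. Nothing is read from this count, since the same contrast chose the family and the call is no test of Efna3. All VPA arrays lay above all control arrays in 3 ligands, Efna2, Efna3 and Efna4, and below them in 1, Efna1, where 11.1% and 12% of all genes did so, or 23.1% in either direction. Every ligand kept the sign of its difference in each of 13 alternative settings. Several of these leave a ligand's difference unchanged by construction: the filter, the trended prior, the replicate block, the mean of probe sets and all probe sets. Only the other scalings and the omission of arrays could move it.

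The 3 ephrin genes of chromosome 3 made it possible to ask whether the genes around Efna3 moved with it. Of the 20 measured genes nearest to the cluster in chromosome order, 10 on each side, none passed limma's test, where 2.34% of all genes were called. Before adjustment none was higher and 4 were lower at p under 0.05, where 9.82% of all genes were higher and 8.3% lower at this cut-off. Their differences ran from -0.48 to 0.12, with a median of -0.04, so none approached that of Efna3. Adam15, a membrane metalloprotease gene next to Efna4, was at 0.08 (SE 0.115, adjusted p = 0.763), and Dcst1, beyond it, at -0.08 (SE 0.0842, adjusted p = 0.659). On the other side, the sugar transporter gene Slc50a1, next to Efna1, was at -0.01 (SE 0.106, adjusted p = 0.971) and Dpm3, of dolichol phosphate mannose synthase, at -0.15 (SE 0.107, adjusted p = 0.475). The 95% intervals of these 4 included 0.

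Muc1 had the lowest difference of the 20. It encodes an epithelial mucin and had 6.62, 6.30 and 6.36 in VPA arrays, against 7.02, 6.95 and 6.76 in control arrays. The difference was -0.48 (SE 0.112, adjusted p = 0.0596), and it passed in 4 settings, among them median-centred arrays (0.0469), a filter on low values (0.0449) and a trended prior (0.0453). Muc1 was chosen for mention after its value was seen. Overlapping the span of Efna3, RefSeq places the long non-coding RNA genes Gm15998 and Gm34014. Gm15998 has a probe set of its own, which was at -0.18 (SE 0.146, adjusted p = 0.549), with VPA and control values that overlapped.

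**Figure D2:**
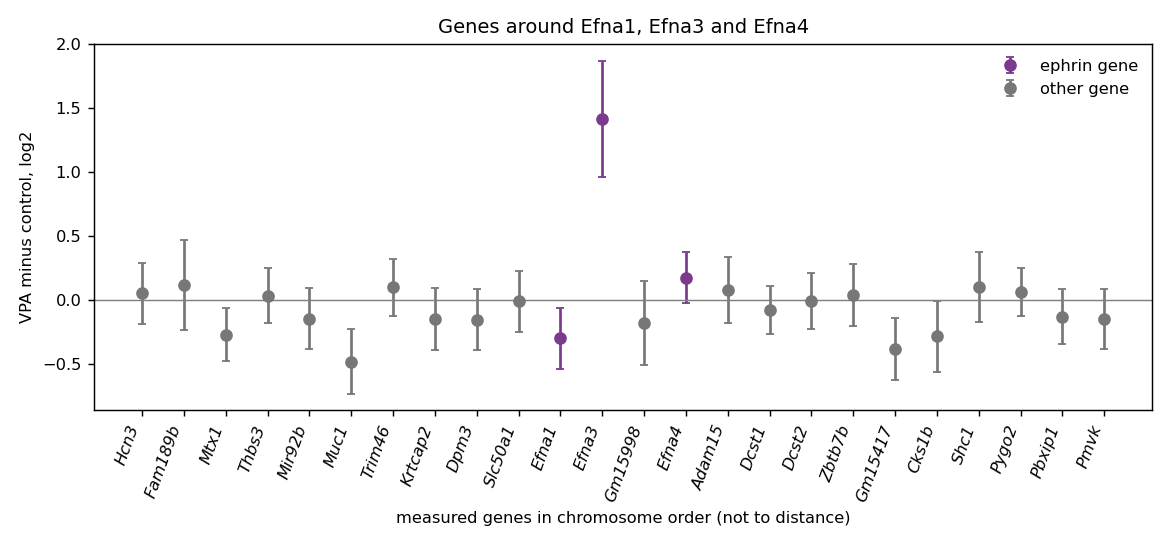
The VPA minus control difference on the log2 scale (points, with 95% intervals as bars, 3 arrays per group) is plotted for Efna1, Efna3, Efna4, the lncRNA gene Gm15998 and the 10 measured genes on each side, in chromosome order and not to distance. Efna3, at 1.41, stands alone, and the 20 genes around the cluster lie between -0.48 and 0.12.

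None of the receptors that the ephrins bind passed the test. Of 14 Eph receptor genes, 13 had a value, and Ephb2 is not analysed here. Limma called 0 of the 13, where it called 2.34% of all genes, and before adjustment 2 were higher and 0 lower at p under 0.05, against 9.82% and 8.3% of all genes. The 13 differences ran from -0.22 to 0.44, with a median of -0.05. Ephb6, a receptor without kinase activity, had 9.002, 8.478 and 8.407 in VPA arrays, against 8.224, 8.181 and 8.148 in control arrays. The groups did not overlap and VPA replicate 1 was the highest. The difference was 0.44 (SE 0.145, adjusted p = 0.148). Epha3, for which ephrin-A5 is a known ligand, had 9.27, 9.02 and 9.03 in VPA arrays, against 8.88, 8.86 and 8.94 in control arrays, a difference of 0.21 (SE 0.0948, adjusted p = 0.272). For Epha4, a receptor of ephrin-A3 on hippocampal neurons in the mouse, the difference was -0.10 (SE 0.0993, 95% interval from -0.32 to 0.13), and for Epha2, an epithelial receptor of ephrin-A1, it was 0.07 (SE 0.0863, 95% interval from -0.13 to 0.26). Both were named after their values were seen. A change of these receptors of the size seen for Efna3 lies outside their intervals.

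**Figure D3:**
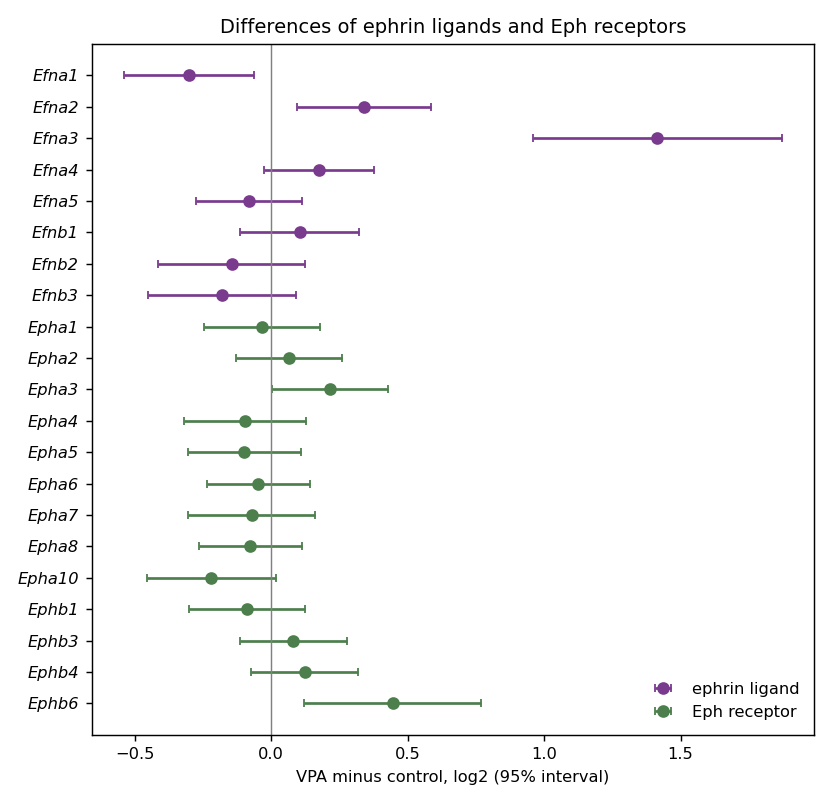
The VPA minus control difference on the log2 scale is plotted for the 8 ephrin ligands and the 13 measured Eph receptors, as points with 95% intervals from the limma fit (3 arrays per group). Efna3, at 1.41, is to the right of all the others, of which Ephb6, at 0.44, is the highest and Efna1, at -0.30, the lowest.

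Among 12 genes for partners of reverse signalling, which carry the signal into the ephrin-bearing cell, 1 was higher, 1 was lower and 10 did not pass, where 1.71% of all genes were higher and 0.632% lower. Ptpn13, a phosphatase with PDZ domains that binds and dephosphorylates ephrin-B, had 8.78, 8.23 and 8.11 in VPA arrays, against 7.64, 7.62 and 7.62 in control arrays. It rose 1.68-fold (log2 0.75, SE 0.155, adjusted p = 0.042), with VPA replicate 1 the highest and no overlap. Fgfr1, a fibroblast growth factor receptor that can phosphorylate ephrin-B, had 10.51, 10.43 and 10.36 in VPA arrays, against 10.95, 10.96 and 10.75 in control arrays. It fell by 0.45 on the log2 scale (SE 0.0939, adjusted p = 0.042), again with no overlap. Both calls ended when single arrays were left out. Without VPA replicate 1, VPA replicate 2, control replicate 1, control replicate 2 or control replicate 3 the adjusted p was 0.0608, 0.1, 0.142, 0.0701 or 0.12 for Ptpn13 and 0.107, 0.143, 0.164, 0.0769 or 0.0656 for Fgfr1, and without VPA replicate 3 it was 0.0167 and 0.0691. Both genes serve other pathways, so the list's name does not describe all they do. The median difference of the list was -0.08, against -0.035 over all genes.

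Of 28 genes for effectors downstream of Eph receptors, none passed, where 2.34% of all genes did, and the median difference was 0.02. Before adjustment 3 were higher and 3 lower at p under 0.05, against 9.82% and 8.3% of all genes. Yes1, a Src-family kinase, had 10.34, 10.58 and 9.87 in VPA arrays, against 9.55, 9.81 and 9.54 in control arrays, a difference of 0.63 (SE 0.167, adjusted p = 0.089). It passed without VPA replicate 3, at an adjusted p of 0.0119 and a difference of 0.82. With any other single array left out, its adjusted p ran from 0.0776 to 0.265. Over all genes 4.09% were called without VPA replicate 3, against 2.34% with all arrays. Dok1, an adaptor that binds Ras GTPase-activating protein, was at -0.29 (SE 0.096, adjusted p = 0.152).

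The genes that anchor and cut ephrins did not pass, where 2.34% of all genes did. Of 11 genes of GPI anchor synthesis, attachment and release, on which ephrin-A proteins depend, 3 were higher and 0 lower before adjustment at p under 0.05, against 9.82% and 8.3% of all genes, and the median difference was 0.12. Pgap1, which removes an acyl chain from the anchor, had 10.71, 10.59 and 10.01 in VPA arrays, against 9.51, 9.99 and 9.76 in control arrays. VPA replicate 3 and control replicate 2 nearly met, as they came closest for Efna3, and the difference was 0.68 (SE 0.183, adjusted p = 0.0915). It passed without VPA replicate 3, where 4.09% of all genes were called, at an adjusted p of 0.0132 and a difference of 0.89. With any other single array left out, its adjusted p ran from 0.0697 to 0.287. Pigs, a subunit of the transamidase that attaches the anchor, was at 0.30 (SE 0.0968, adjusted p = 0.142). With each gene centred on its mean of all arrays, the list averaged 0.14, 0.10 and -0.02 in VPA replicates 1, 2 and 3 and -0.14, 0.07 and -0.15 in control replicates 1, 2 and 3, so control replicate 2 lay above VPA replicate 3.

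Of 11 measured genes for proteases that shed ephrins or Eph receptors and for the gamma-secretase that follows, 0 were higher and 2 were lower before adjustment at p under 0.05, against 9.82% and 8.3% of all genes. The metalloprotease gene Adam12 was at -0.46 (SE 0.148, adjusted p = 0.143) and the membrane-type metalloprotease gene Mmp14 at -0.45 (SE 0.145, adjusted p = 0.145). Without VPA replicate 3, where 4.09% of all genes were called, both passed, at -0.60 (adjusted p = 0.0465) and -0.62 (adjusted p = 0.0212). With any other single array left out, the adjusted p ran from 0.0736 to 0.391 for Adam12 and from 0.191 to 0.391 for Mmp14. Adam10, which cuts ephrin-A ligands when they are bound and was named after its value was seen, was at 0.10 (SE 0.0914, adjusted p = 0.572). Other axon guidance ligands were set beside the ephrins. Of 29 measured semaphorin, netrin, Slit and repulsive guidance molecule genes none passed, where 2.34% of all genes did. Before adjustment 3 were higher and 2 were lower at p under 0.05, against 9.82% and 8.3% of all genes. Sema4g was at 0.55 (SE 0.14, adjusted p = 0.0809) and Sema3a, a secreted repellent, at -0.44 (SE 0.124, adjusted p = 0.103). Without VPA replicate 3 they passed as well, at 0.65 (adjusted p = 0.0439) and -0.56 (adjusted p = 0.0277). With any other single array left out, the adjusted p ran from 0.0552 to 0.265 for Sema4g and from 0.126 to 0.289 for Sema3a.

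The genes with values most like those of Efna3 were found by the root mean square distance between values centred on each gene's mean over the 6 arrays. The closest 5 of 19937 were Fam13a (distance 0.101), the palmitoyltransferase gene Zdhhc9 (0.115), the metalloprotease gene Adam8 (0.13), Vsnl1, which encodes a neuronal calcium sensor (0.152), and the D-type cyclin gene Ccnd2 (0.157), which the series title names. The other ephrin ligands lay much farther away, from 0.608 for Efna2 to 0.907 for Efna1. In all 5 genes, as in Efna3, VPA replicate 3 was the lowest VPA array and control replicate 2 the highest control. The genes were picked for closeness to the Efna3 values, so this shared order is no separate result. Fam13a, for example, had 9.05, 9.20 and 8.48 in VPA arrays, against 7.39, 7.93 and 7.44 in control arrays. Since these genes were picked for their likeness, their differences are descriptions: they were 2.51-fold for Fam13a, 2.65-fold for Zdhhc9, 2.48-fold for Adam8, 2.34-fold for Vsnl1 and 2.53-fold for Ccnd2.

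**Figure D4:**
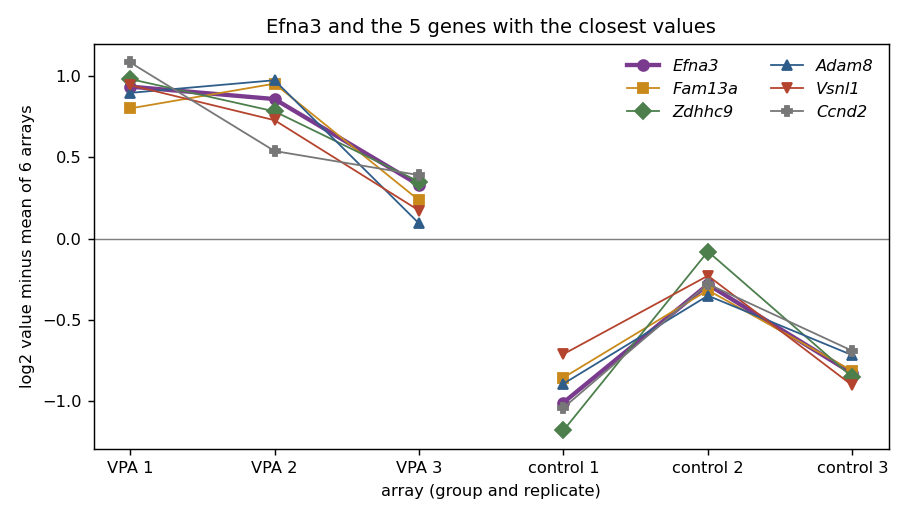
Log2 values minus the gene's mean over the 6 arrays are plotted for Efna3 (thick line) and the 5 genes with the smallest distance from it, with the 3 VPA arrays on the left and the 3 control arrays on the right. For Efna3 they run from 0.33 to 0.93 in VPA arrays and from -1.01 to -0.28 in control arrays. The other lines lie close to it because the genes were picked that way, with VPA replicate 3 and control replicate 2 nearest to 0.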

How the data were processed

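RNA of 6 samples, 3 VPA and 3 control, was hybridised to Affymetrix mouse Gene ST arrays, 1 per sample, per the labels' protocols. The deposited log2 values came from RMA as the authors ran it in Expression Console of Affymetrix (per the submitters' processing notes); program versions and the genome build are not stated in these sources. RMA forces the arrays to 1 distribution, so a shift of most transcripts would not show. Of 35556 probe sets, 21789 had 1 gene symbol, 1621 several and 12146 were not listed; the first kind named genes, and 21698 matched a RefSeq identifier. Groups came from the titles. Samples are described as biological replicates, with no statement of separate cultures, so p-values measure the spread between these samples.

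VPA was compared with control with limma 3.58.1 (lmFit, eBayes; R 4.3.3) over all 19938 genes, group as the only term, two-sided, with Benjamini-Hochberg adjustment over all genes. Every adjusted p is from this fit, and a gene was called at an adjusted p under 0.05. Intervals are 95% intervals from the moderated standard error (median 0.101), and the number of arrays limits the precision. The procedure was tested on simulated data. The members and lists were chosen with earlier results of these data known. Named were all ligands; up to 3 called genes of each list per direction, or, with none called, the 2 of smallest p; the 2 nearest genes on each side of the chromosome 3 cluster and any gene within it; and the 5 genes most like Efna3. Basal epithelial, fibroblast and endothelial marker lists (4, 6 and 5 measured genes) had no called gene, and the leukocyte list (5) had 1, Cd53, which was lower. Over all genes 2.34% were called, with 0.632% lower. At an unadjusted p under 0.05 in the same fit, Col3a1 of the fibroblast list was lower, Tek of the endothelial list was higher and no basal gene passed. The result of 1 further list is not reported here. Alternatives were a filter on low values (log2 of at least 6 in at least 3 arrays, which all 8 ligands passed), other scalings, the mean of probe sets, all probe sets, a prior with trend and robustness, blocking on the replicate number, an adjusted p threshold of 0.01 and omission of each array.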

Additional observations from a re-analysis of the deposited data

How the results depend on the processing

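The Efna3 difference lay between 1.37 and 1.41 under the alternatives that kept all arrays and between 1.26 and 1.63 with single arrays left out. Among the former, only the second quantile normalization (1.37) and median centring (1.39) could change it. Each other ligand moved by less than its spread between replicates. The median of the 7 other ligands was -0.08, and it was -0.0106 after a second quantile normalization and from -0.12 to -0.0046 with single arrays left out. The count of ligands called, 1, was 0 with all probe sets tested, 0 at an adjusted p under 0.01 and from 0 to 1 without single arrays. The 2 calls among the other pathway lists (Ptpn13 and Fgfr1) became 0 with all probe sets tested, 0 at an adjusted p under 0.01 and from 0 to 7 without single arrays. No Eph receptor was called in any of 14 alternatives. Around Efna3 the count of 0 became 1 with the filter on low values, with median centring and with the trended prior, where Muc1 passed. Over all genes 467 were called, 341 higher and 126 lower, but 2 with all probe sets tested, 43 at an adjusted p under 0.01 and from 20 to 815 without single arrays. The causes were not tested. Testing all probe sets brings more tests (35556), and the fit and its prior then also take in the probe sets with several symbols (1621) or not listed (12146). With the replicate number as a block, 1199 genes were called, 7 in the pathway lists (Yes1, Pgap1, Sema4g and Sema3a among them, adjusted p 0.014, 0.0355, 0.0303 and 0.0247), 2 around Efna3 (Muc1 and Gm15417, 0.0183 and 0.0482), 4 neuronal markers and Efna3 alone among the ligands; the numbers were not taken to pair the samples, since same-numbered deviations from the group means correlated at 0.0841, 0.451 and 0.284 for numbers 1, 2 and 3, though 5 of the 6 arrays correlated best with their own number, a hint from the data and not the design. No measure of signal over background is available, which limits what low values can show.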
